A study of Mus musculus with 8 samples.

Results

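The gene set described here holds 10 genes known across tissues to be induced by glucocorticoids (GCs): *Tsc22d3*, *Sgk1*, *Klf9*, *Ddit4*, *Zbtb16*, *Dusp1*, *Nfkbia*, *Mt1*, *Mt2* and *Arrdc2*. They were taken by name from the 50686 genes of a table of raw RNA-seq counts. All 10 were present in the table and all 10 were among the 16018 genes kept for testing after a filter on low counts. The samples were ventral hippocampi of 8-week-old male mice of the C57B6/J strain, 1 mouse per library. Of these mice, 4 were injected with vehicle (libraries 1 to 4) and 4 with corticosterone at 3 mg/kg (libraries 5 to 8). Corticosterone is the principal GC that mice make themselves. All mice were injected in the morning and killed 3 h later, so the vehicle mice went through the same handling and injection.

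GCs cross the cell membrane and bind a pair of receptors, GR (*Nr3c1*) for glucocorticoids and MR (*Nr3c2*) for mineralocorticoids, which then act in the nucleus as transcription factors. The receptors bind as pairs to a DNA element made of a pair of inverted arms separated by 3 bases, the glucocorticoid response element (GRE). The hippocampus is rich in both receptors and is one of the brain regions through which GCs feed back on the stress response. The 10 genes act at different points of the cell. *Tsc22d3*, *Klf9* and *Zbtb16* encode regulators of transcription, *Nfkbia*, *Dusp1* and *Ddit4* encode brakes on signalling pathways, *Sgk1* encodes a kinase, *Arrdc2* encodes an arrestin-domain protein, and *Mt1* and *Mt2* encode metal-binding proteins.

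The start regions of the genes are shown because the response element of the receptor is a short, readable sequence. RefSeq windows from 250 bases before to 50 bases after a gene start (GRCm38.p6) were found for 9 of the 10 genes, 16 windows in all, since *Tsc22d3* and *Sgk1* have several starts. The full GRE was searched as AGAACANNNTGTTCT, which reads the same on both strands. It was found in 3 of 32817 mouse windows (0.009142%), and 1 of these 3 was the fifth window of *Sgk1*. That match lies at chr10:21993701-21993715, inside the *Sgk1* locus. The stretch around it is printed 5′ to 3′ on the plus strand (chr10:21993671-21993745), from 219 to 145 bases before that start, with the GRE in capitals.
Sgk1: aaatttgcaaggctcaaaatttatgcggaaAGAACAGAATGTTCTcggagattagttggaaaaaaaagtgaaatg
A single arm of the element, AGAACA on either strand, was found in 18.97% of all windows and in 4 of the 16 windows here. Among the 10 genes it was present in windows of *Sgk1* and *Tsc22d3*, where the matches of *Sgk1* include both arms of the full element. The *Tsc22d3* stretch is given in the direction of the gene, on the minus strand (chrX:140600672-140600737), with the arm in capitals as it reads on this strand.
Tsc22d3: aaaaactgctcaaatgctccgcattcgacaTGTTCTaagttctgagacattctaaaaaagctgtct
Other motifs were searched on both strands. The cyclic AMP response element TGACGTCA, bound by CREB, was found in 1.792% of all windows and, of the 10 genes, in *Dusp1*. Its stretch lies on the minus strand at chr17:26508578-26508645 and carries the element in capitals.
Dusp1: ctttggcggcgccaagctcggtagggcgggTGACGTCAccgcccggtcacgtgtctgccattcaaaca
The core of the metal response element, bound by the zinc sensor MTF1, was searched as TGCGCNC or TGCACNC. It was found in 25.7% of all windows and in 6 of the 16 windows here, 1 window in each of 6 genes. The *Mt1* window held 3 matches and the *Mt2* window 4, whereas *Sgk1*, *Ddit4*, *Dusp1* and *Nfkbia* had 1 each. The 250 bases before each metallothionein start are printed on the plus strand, chr8:94178839-94179088 for *Mt1* and chr8:94172368-94172617 for *Mt2*, with the 1 and 3 matches before the start in capitals. A match describes letters in a window and does not show that a factor binds there.
Mt1: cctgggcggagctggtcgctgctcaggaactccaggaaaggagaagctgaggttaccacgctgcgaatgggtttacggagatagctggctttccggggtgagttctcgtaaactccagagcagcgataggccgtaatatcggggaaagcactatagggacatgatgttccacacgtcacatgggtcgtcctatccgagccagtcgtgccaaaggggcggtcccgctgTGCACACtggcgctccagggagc
Mt2: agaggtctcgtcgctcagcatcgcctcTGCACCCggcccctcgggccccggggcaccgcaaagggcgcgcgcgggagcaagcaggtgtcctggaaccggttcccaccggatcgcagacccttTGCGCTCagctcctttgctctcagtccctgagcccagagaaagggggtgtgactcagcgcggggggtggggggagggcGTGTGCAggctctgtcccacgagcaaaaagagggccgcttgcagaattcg

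Between 17492159 and 19931987 reads per library were counted on genes. Libraries of a group differed by more than counting noise in every pair, with a chi-square per degree of freedom from 3.56 to 37.0 over 13827 genes. Corticosterone library 5 stood apart, since its pairs gave 29.0 to 37.0 and the other corticosterone pairs 3.56 to 4.25. *Fkbp5*, a GR co-chaperone and classic GC target outside the set, served as the check of the treatment. Its normalized counts were 2373, 1765, 1983 and 1709 in vehicle libraries 1 to 4 and 3186, 3510.5, 3364 and 3177 in corticosterone libraries 5 to 8. *Fkbp5* rose with a log2FC of 0.76 (SE 0.0968, edgeR adjusted p = 0.0481), and it also passed without vehicle library 1 (0.00224) or corticosterone library 5 (0.00508). With any of the other 6 libraries left out, the adjusted p of *Fkbp5* in edgeR was 0.142 to 0.331 at a log2FC of 0.69 to 0.77, and it was 0.0530 when at least 10 counts were asked of every library. DESeq2 (1.46e-08) and limma-voom (0.0356) also called it. It was the only gene of the 16018 called at an adjusted p under 0.05 (0.00624%), and without corticosterone library 5 the number was 1651.

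None of the 10 GC-induced genes passed the adjusted threshold, and all 10 had a higher mean in the corticosterone group. Their log2FC lay between 0.18 and 0.46, with a median of 0.30, beside a median of 0.0036 over all tested genes. A log2FC above 0 was found in 50.7% of tested genes, and one of at least 0.18 in 14.98%. At an unadjusted p under 0.05, 5 of the 10 were higher, namely *Tsc22d3*, *Klf9*, *Zbtb16*, *Mt1* and *Mt2*, beside 4.51% of all tested genes. Only *Zbtb16* had no overlap between the groups, beside 1.99% of tested genes. In bulk tissue, a higher number of cells that express a gene and more RNA per cell cannot be told apart. The values of every library are drawn in the plot of normalized counts by gene.

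**Figure D1:**
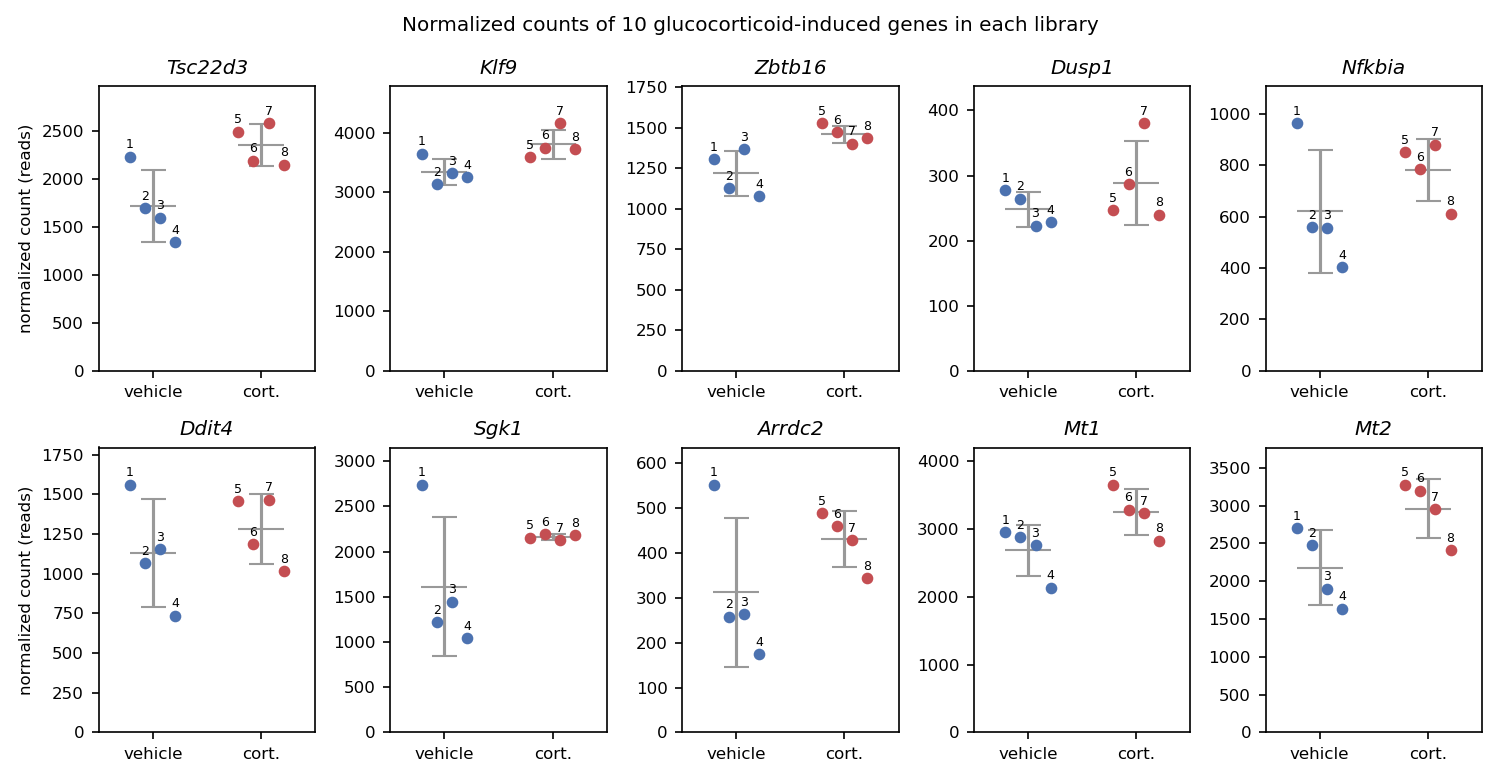
Normalized counts (reads, TMM, linear axis from 0) of the 10 GC-induced genes in 4 vehicle (blue) and 4 corticosterone (red, cort.) libraries of ventral hippocampus, with the library number beside each point and the mean ± SD in grey. Vehicle library 1 is the highest vehicle point in 9 of the 10 panels, and the 4 corticosterone points of *Sgk1* lie between 2126 and 2191.

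Among the regulators of transcription, *Tsc22d3* had the smallest p value. It encodes GILZ, a leucine zipper protein known to mediate anti-inflammatory actions of GCs (ENSMUSG00000031431, GRCm38 chrX:140539528-140600659, minus strand). Its normalized counts were 2233, 1700.4, 1598 and 1343 in the vehicle libraries and 2496, 2195, 2584 and 2152 in the corticosterone libraries. Corticosterone libraries 5 and 7 were above every vehicle library, whereas libraries 6 and 8 were below vehicle library 1. The mean was 1719 ± 375 (SD, n = 4) with vehicle and 2357 ± 216 (SD, n = 4) with corticosterone. This is a log2FC of 0.46 (SE 0.128) and a 1.37-fold difference with a 95% interval from 1.13 to 1.66. The edgeR p was 0.00355 before and 0.386 after adjustment, and the 2-sided exact permutation p was 0.0857. The adjusted p was 0.0226 with no filter on low counts, where 0.287% of the genes tested were called. Without corticosterone library 5 it was 0.0486, and 10.2% of the genes tested were called in that setting. The log2FC was then 0.43 and the unadjusted edgeR p 0.00479.

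*Zbtb16* encodes PLZF, a zinc finger repressor (ENSMUSG00000066687, GRCm38 chr9:48654297-48836222, minus strand). Vehicle libraries 1 to 4 had 1307, 1127, 1367 and 1079 normalized counts, and corticosterone libraries 5 to 8 had 1529, 1473, 1403 and 1435. All corticosterone values were above all vehicle values, with the lowest corticosterone value 2.60% above the highest vehicle value. The means were 1220.3 ± 139 and 1460.2 ± 54.3 (SD, n = 4 each), a log2FC of 0.26 (SE 0.0835) and a 1.20-fold difference (95% interval 1.06 to 1.36). The edgeR p was 0.00852 and the adjusted p 0.465. The exact permutation p of 0.0286 is the smallest that 4 against 4 libraries can give.

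*Klf9* encodes a Krüppel-like factor that is also a target of thyroid hormone (ENSMUSG00000033863, GRCm38 chr19:23141226-23168134, plus strand). Its normalized counts in the vehicle libraries were 3649.5, 3133, 3323 and 3249, followed by 3585, 3750.2, 4161 and 3726 with corticosterone. Vehicle library 1 was above corticosterone library 5 and below the other 3. The difference was small, 3339 ± 221 against 3806 ± 248 (SD, n = 4 each), with a log2FC of 0.19 (SE 0.0726) and a 1.14-fold difference (95% interval 1.02 to 1.27). The edgeR p of 0.0222 became 0.517 after adjustment, and the exact permutation p was 0.0571.

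Of the brakes on signalling, *Nfkbia* encodes IκBα, which holds NF-κB in the cytoplasm (ENSMUSG00000021025, GRCm38 chr12:55489410-55492647, minus strand). Vehicle libraries 1 to 4 held 963, 559, 557 and 404 normalized counts and corticosterone libraries 5 to 8 held 850.0, 785, 879.7 and 612. Vehicle library 1 was the highest of all 8, and all 4 corticosterone values were above the other 3 vehicle values. The means of 621 ± 239.7 and 782 ± 119.9 (SD, n = 4 each) gave a log2FC of 0.33 (SE 0.208, edgeR p = 0.135, adjusted p = 0.587, exact permutation p = 0.286). The interval of the fold ran from 0.921 to 1.72. The log2FC was 0.62 (adjusted p = 0.199) without vehicle library 1 and 0.17 (adjusted p = 0.655) without vehicle library 4.

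*Ddit4* encodes REDD1, a stress-induced inhibitor of the growth kinase complex mTORC1 (ENSMUSG00000020108, GRCm38 chr10:59949669-59951834, minus strand). Its values were 1561, 1067, 1156 and 734 normalized counts with vehicle and 1457, 1185, 1465 and 1016 with corticosterone. The highest value was again in vehicle library 1 and the lowest in vehicle library 4, with the corticosterone values between them. A log2FC of 0.18 (SE 0.183, edgeR p = 0.341, adjusted p = 0.710, exact permutation p = 0.514) was the smallest of the set, and the fold interval was 0.861 to 1.49. Without vehicle library 4 it came to 0.02, and without vehicle library 1 to 0.37.

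*Dusp1* encodes MKP-1, a phosphatase that switches off MAP kinases, and also behaves as an immediate early gene (ENSMUSG00000024190, GRCm38 chr17:26505590-26562128, minus strand). With 278, 264, 223 and 228 normalized counts in the vehicle libraries and 247, 286, 380.4 and 239.7 in the corticosterone libraries, only corticosterone libraries 6 and 7 exceeded all vehicle libraries. The means were 248 ± 27.0 and 288 ± 64.8 (SD, n = 4 each), with a log2FC of 0.21 (SE 0.147, edgeR p = 0.171, adjusted p = 0.608, exact permutation p = 0.314). Without corticosterone library 7 the log2FC was 0.05. The exons of *Dusp1* share 11 bases with *Ergic1* on the opposite strand.

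*Sgk1*, the serum- and glucocorticoid-regulated kinase, acts on ion channels and transporters (ENSMUSG00000019970, GRCm38 chr10:21882184-21999903, plus strand). It is the gene whose window held the full GRE printed above. Vehicle libraries 1 to 4 contained 2741, 1220.5, 1447 and 1042 normalized counts, and corticosterone libraries 5 to 8 contained 2154, 2191, 2126 and 2184. The corticosterone values were nearly equal, whereas vehicle library 1 was above all of them and the other vehicle libraries were below all of them. The coefficient of variation (CV, the SD in percent of the mean) was 47.8% with vehicle and 1.39% with corticosterone. The means of 1613 ± 770.2 and 2164 ± 30.0 (SD, n = 4 each) gave a log2FC of 0.42 (SE 0.225, edgeR p = 0.0822, adjusted p = 0.547, exact permutation p = 0.143). Without vehicle library 1 the log2FC was 0.80 and the adjusted p 0.0227, and without vehicle library 4 they were 0.26 and 0.525 (edgeR).

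*Arrdc2* belongs to the α-arrestins, adaptors for the ubiquitination of membrane proteins (ENSMUSG00000002910, GRCm38 chr8:70835129-70839720, minus strand). Its normalized counts were 552, 258, 264 and 174 with vehicle and 488, 460.0, 429 and 344 with corticosterone. The arrangement was that of *Nfkbia* and *Sgk1*, with vehicle library 1 above all corticosterone libraries and the other 3 vehicle libraries below all of them. The log2FC was 0.46 (SE 0.265), from means of 312 ± 165 and 430.3 ± 62.5 (SD, n = 4 each), with an edgeR p of 0.104, an adjusted p of 0.567 and an exact permutation p of 0.143. It was 0.89 with an adjusted p of 0.0642 without vehicle library 1, and 0.26 with an adjusted p of 0.574 without vehicle library 4.

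The metallothioneins *Mt1* and *Mt2* encode small cysteine-rich proteins that bind zinc and copper, and they lie 5513 bases apart on the plus strand of chromosome 8 (*Mt1*, ENSMUSG00000031765, GRCm38 chr8:94179082-94180327, *Mt2*, ENSMUSG00000031762, GRCm38 chr8:94172664-94173568). *Mt1* had 2947, 2881, 2763 and 2136 normalized counts with vehicle and 3652, 3284, 3236 and 2826 with corticosterone. *Mt2* had 2701, 2477, 1902 and 1638 with vehicle and 3277, 3197, 2952 and 2412 with corticosterone. For both genes, corticosterone libraries 5, 6 and 7 were above all vehicle libraries and library 8 was not. *Mt1* differed by a log2FC of 0.28 (SE 0.105, edgeR p = 0.0207, adjusted p = 0.510, exact permutation p = 0.0857), and its fold was 1.21 with an interval from 1.04 to 1.42. *Mt2* differed by a log2FC of 0.44 (SE 0.144, edgeR p = 0.00900, adjusted p = 0.466, exact permutation p = 0.0857), and its fold was 1.36 with an interval from 1.09 to 1.68. The adjusted p of *Mt2* was 0.0496 with no filter on low counts. Without vehicle library 4 the log2FC was 0.18 for *Mt1* and 0.32 for *Mt2*. The longest run that *Mt1* and *Mt2* transcripts share is 20 bases, below the read length of 100. Of the 588 exon bases of *Mt2*, 432 overlap *Gm45774* on the opposite strand, so its counts are uncertain to that extent if strand was not used in the counting.

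The position of the vehicle libraries was shared by most of the set. Vehicle library 1 was the highest of the vehicle libraries for 9 of the 10 genes, all but *Zbtb16*, whereas it was the highest for 21.4% of tested genes. Vehicle library 4 was the lowest for 8 of the 10, all but *Klf9* and *Dusp1*, beside 29.9% of tested genes. Both held for 7 genes, beside 7.51% of tested genes. Relative to the mean of the other 3 vehicle libraries, library 1 was 2.38-fold for *Arrdc2*, 2.22-fold for *Sgk1*, 1.90-fold for *Nfkbia* and 1.58-fold for *Ddit4*. The corticosterone mean of these genes was 1.86-fold, 1.75-fold, 1.54-fold and 1.30-fold on the same scale, lower than library 1 in each case. At the other end, the ratio of library 1 was 1.10 for *Zbtb16* and 1.13 for *Klf9*, below their corticosterone ratios of 1.23 and 1.18.

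Without vehicle library 1, 6 of the 10 genes had no overlap between the groups (*Tsc22d3*, *Sgk1*, *Klf9*, *Zbtb16*, *Nfkbia* and *Arrdc2*), beside 3.45% of tested genes. All but *Dusp1* were then higher at an unadjusted p under 0.05, beside 3.57% of the genes tested in that setting. Without vehicle library 4 the number at that threshold was 3, beside 6.56% of the genes tested, and in this setting 8 of the 10 genes had their smallest log2FC of all 14 settings. The 10 log2FC remained above 0 in all 14 settings. In the plot of fold changes, the values without vehicle libraries 1 and 4 mostly bracket the others.

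**Figure D2:**
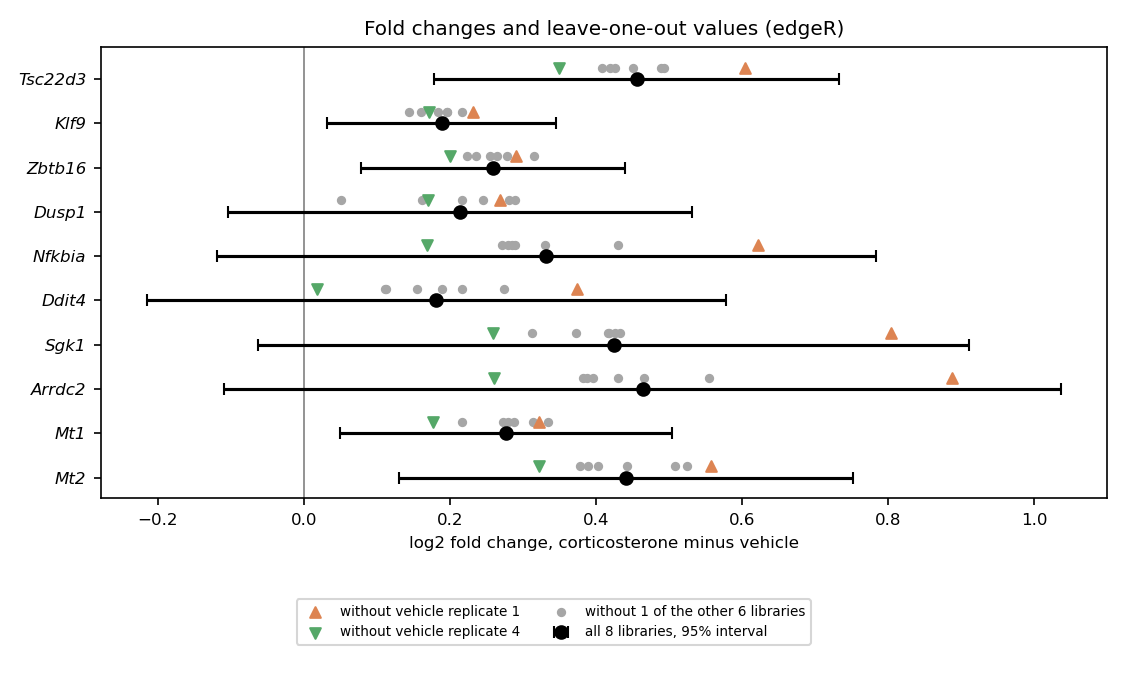
Log2 fold change of each of the 10 genes (corticosterone minus vehicle, edgeR) with all 8 libraries and its 95% interval (black), and with 1 library left out (coloured and grey symbols, drawn above each bar). The interval excludes 0 for *Tsc22d3*, *Klf9*, *Zbtb16*, *Mt1* and *Mt2*, and leaving out vehicle library 1 takes *Sgk1* from 0.42 to 0.80 and *Arrdc2* from 0.46 to 0.89.

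Markers of other cell types also separated the vehicle libraries. The summed level of 8 oligodendrocyte markers, in RPKM (reads per kb of exon, scaled to the TMM library size), was 1035 in vehicle library 1, 757 in library 2, 635 in library 3 and 579.9 in library 4, and it was 575 to 696 with corticosterone. All 8 oligodendrocyte markers were highest in library 1 among the vehicle libraries, and none of the 8 had a higher mean with corticosterone (*Mbp* -0.46 and *Cnp* -0.35 in log2FC). At an unadjusted p under 0.05, 3 of the 8 were lower, beside 4.52% of all tested genes. The summed level of 6 choroid plexus markers was 40.2, 20.4, 7.97 and 4.97 in vehicle libraries 1 to 4, and 42.2, 35.7, 12.3 and 24.0 in corticosterone libraries 5 to 8. The summed level of 4 markers of oligodendrocyte precursors had the same order in a smaller range, 29.0, 27.6, 26.6 and 25.6 with vehicle and 25.4 to 31.5 with corticosterone (*Pdgfra* 0.20 and *Cspg4* -0.37 in log2FC). All 3 lists thus had the order of vehicle libraries seen in *Tsc22d3*, *Nfkbia*, *Mt1* and *Mt2*. Of the 5 choroid plexus markers past the filter on low counts, 4 had higher means with corticosterone. Of these, *Clic6* (log2FC 1.16) and *Otx2* (1.04) passed an unadjusted p under 0.05, beside 4.51% of tested genes that were higher at it. The part of these cell types in the values of the 10 genes was not tested.

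The remaining marker lists did not follow this order. The neuron markers, 8 of 8 detected, summed to 695 to 780.2 with vehicle and 697 to 809 with corticosterone (*Rbfox3* -0.19 and *Neurod6* -0.23 in log2FC, with 5 of the 8 higher, 3 lower and a median of 0.0091), and the 8 astrocyte markers to 731 to 795 and 706 to 755 (*Gja1* -0.15 and *S100b* -0.09). The 6 microglia markers summed to 138 to 148 with vehicle and 117 to 145 with corticosterone. Of these, *Cx3cr1*, the fractalkine receptor, had a log2FC of -0.76 (SE 0.135, edgeR adjusted p = 0.186) and *P2ry12*, a purinergic receptor, one of -0.47 (SE 0.118, edgeR adjusted p = 0.298), both without overlap, beside 1.68% of tested genes that were lower without overlap. The sum of the 6 endothelial markers was lower in all corticosterone libraries (25.9 to 30.3) than in the vehicle libraries (32.6 to 39.8), with library 1 the lowest of the vehicle libraries, whereas each of the 6 markers overlapped between the groups (*Tek* -0.43 and *Cldn5* -0.72 in log2FC). The 5 erythrocyte markers ranged in sum from 112 to 356 with vehicle and from 109.7 to 143 with corticosterone, with the highest value in vehicle library 2 (*Hba-a1* -0.79 and its near-identical copy *Hba-a2* -0.54). No tested marker was at 0 reads in all libraries, and the part of these cells was not tested either.

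The spread within the groups was compared as the CV. It was larger in the vehicle than in the corticosterone group for 9 of the 10 genes, all but *Dusp1*, beside 42.4% of all tested genes. The largest vehicle CVs were those of *Arrdc2* (53.0%), *Sgk1* (47.8%), *Nfkbia* (38.6%) and *Ddit4* (30.1%), beside a median of 10.4% over all tested genes. With corticosterone these genes had CVs of 14.5%, 1.39%, 15.3% and 17.1%, beside a median of 11.9%. *Klf9* varied least with vehicle (6.63%) and to a like extent with corticosterone (6.51%). Within the corticosterone group, library 7 was the highest for 5 genes (20.0% of tested genes) and library 8 was the lowest for 7 (21.2%). Library 5 was the highest for 4, near its share of 37.2% over tested genes.

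Levels were compared between genes in RPKM. In the vehicle group, *Mt2* came first with 194 ± 43.8, followed by *Mt1* with 112 ± 15.6, *Klf9* with 36.2 ± 2.40 and *Ddit4* with 33.6 ± 10.1 (SD, n = 4 each). *Tsc22d3* (20.7 ± 4.51), *Nfkbia* (20.1 ± 7.77), *Sgk1* (17.2 ± 8.20) and *Zbtb16* (12.1 ± 1.37) were in the middle, and *Arrdc2* (5.04 ± 2.67) and *Dusp1* (3.92 ± 0.426) were lowest. Neighbours in this order were separated over all 4 vehicle libraries for *Mt2* and *Mt1*, for *Mt1* and *Klf9*, and for *Zbtb16* and *Arrdc2*, and the ranges of the other neighbours overlapped. *Mt2* was above 99.0% of tested genes and *Dusp1* above 46.0%. With corticosterone the order of the means was the same, from *Mt2* at 263 ± 34.6 to *Dusp1* at 4.55 ± 1.02.

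The 10 genes also resembled each other from mouse to mouse. After the group means were subtracted from the log2 values, Pearson's r between genes had a median of 0.65 over the 45 pairs, and 34 pairs were above 0.5, beside a median of -0.0005 and 18.7% over all pairs of tested genes. The highest r was 0.98, between *Nfkbia* and *Arrdc2*, and *Tsc22d3*, *Nfkbia*, *Ddit4* and *Arrdc2* gave values of at least 0.908 with each other. *Zbtb16* and *Dusp1* gave the lowest, with an r of -0.17. *Mt1* and *Mt2* had an r of 0.89. Without vehicle library 1 the median was 0.54, 26 pairs were above 0.5 (21.9% of all pairs of tested genes) and *Sgk1* and *Arrdc2* went from 0.93 to 0.67, whereas *Ddit4* and *Nfkbia* had 0.96 both with and without it. These values rest on 8 and 7 libraries that the genes share, and they are descriptions without a test.

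**Figure D3:**
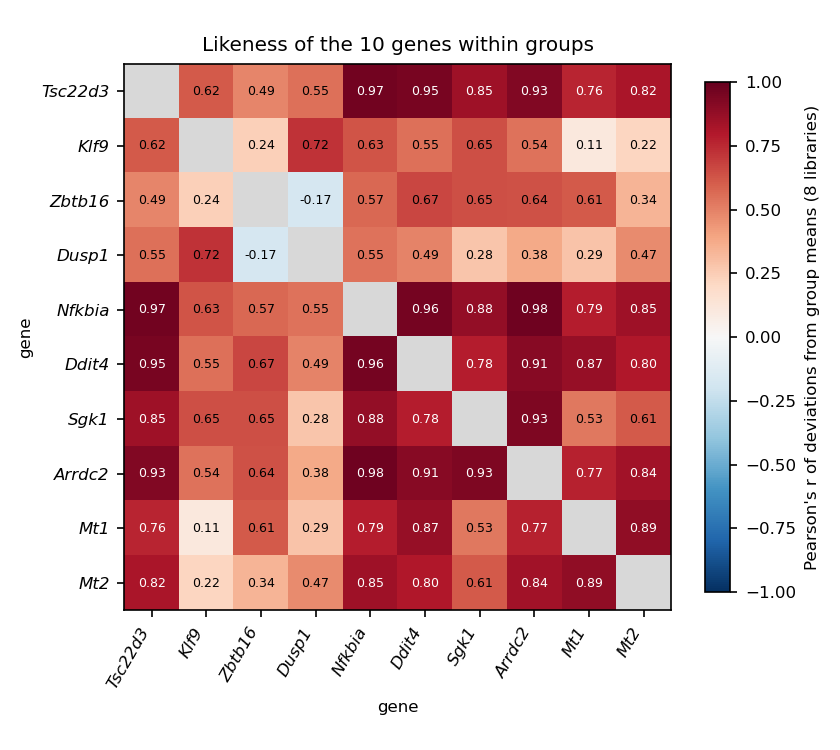
Pearson's r between the 10 genes over 8 libraries, computed on log2 values after subtraction of the mean of each group (colour scale from -1 to 1, diagonal in grey). The pairs among *Tsc22d3*, *Nfkbia*, *Ddit4* and *Arrdc2* lie between 0.908 and 0.98, *Sgk1* with *Arrdc2* is at 0.93, and *Zbtb16* with *Dusp1* is the one pair below 0 (-0.17).

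Over all 16018 tested genes and 8 libraries, the pattern most like *Tsc22d3* was that of *Slc2a1* (r = 0.99), which encodes the glucose transporter GLUT1, followed by *Ezr* and *Gm11827*. *Sgk1* was most like *Fahd1* (0.98), *2700046A07Rik* and *Wasf2*. *Arrdc2* was most like *Tob2* (0.98), *Nfkbia* (0.98) and *Wasf2*, and *Nfkbia* like *Ppp1r3g* (0.98), *Arrdc2* and *Lfng*. The closest to *Ddit4* were *4921504A21Rik* (0.96), *Sys1* and *Ppp1r3g*. *Klf9* was most like *Ptchd4* (0.97), *Pex2* and *Gm6485*, *Zbtb16* like *Ndufab1-ps* (0.96), *Lyve1* and *Slc9b2*, and *Dusp1* like *Rpl36a-ps1* (0.97), *Hs3st3a1* and *Cyp2u1*. *Mt1* and *Mt2* had no such gene in common, with *Nrros* (0.98), *Dtd1* and *Fzd2* closest to *Mt1* and *Ada* (0.97), *Tulp3* and *Rtkn2* closest to *Mt2*. *Arrdc2* and *Nfkbia* were thus the only pair of the set in which each was among the 3 closest genes of the other.

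A wider list of 24 other GC-induced genes gave 22 with a higher mean with corticosterone, 15 of them at an unadjusted p under 0.05 (4.51% of tested genes) and 11 without overlap (1.99% of tested genes), and its median log2FC was 0.31. The list was chosen with earlier results of these data known, so these counts are a description and not independent evidence. *Fkbp5* was the only gene of this list that was called. The largest differences were in *Lcn2* (log2FC 2.41, SE 0.384, adjusted p = 0.163), which encodes lipocalin-2, *Cdkn1a* (1.55), which encodes the cell cycle inhibitor p21, *Anxa1* (11.3 and 32.2 normalized counts in the means of the groups), which encodes annexin A1, and *Plin4* (1.32), a lipid droplet gene. The means were 10.3 and 55.4 normalized counts for *Lcn2* and 329.5 and 962 for *Cdkn1a*. The log2FC of these 4 genes was larger than any of the 10 genes, and those of *Per1* (0.03) and *Rgs2* (0.06) were smaller. *Cebpd* (-0.27) and *Bcl6* (-0.03) were lower. Vehicle library 1 was the highest of the vehicle libraries for 16 of the 24, beside 21.4% of tested genes.

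The families of the 10 genes were examined to see whether the direction was shared by related genes. *Sgk3*, the endosomal relative of *Sgk1*, had 255, 165, 144 and 164 normalized counts with vehicle and 297, 316, 321 and 337 with corticosterone. Its values did not overlap, beside 1.99% of tested genes higher without overlap. Its log2FC of 0.80 (SE 0.155, edgeR adjusted p = 0.196) was larger than the 0.42 of *Sgk1* with all 8 libraries. Without vehicle library 1 *Sgk1* had 0.80. *Akt1*, a kinase of the same branch, had a log2FC of -0.12 (SE 0.0799, edgeR adjusted p = 0.593). *Sgk2*, a low-abundance relative, had 27.7 ± 9.75 and 26.7 ± 1.42 normalized counts (SD, n = 4 each). *Txnip*, the α-arrestin that binds thioredoxin, had a log2FC of 0.42 (SE 0.186, edgeR adjusted p = 0.545), and the 3 other relatives of *Arrdc2* lay between -0.14 and 0.16, with *Arrdc4* at 0.16. The brain metallothionein *Mt3* differed in sign from *Mt1* and *Mt2*, with 3963 ± 383 and 3513 ± 488 normalized counts and a log2FC of -0.17 (SE 0.0995, edgeR adjusted p = 0.567). *Ddit4l* likewise had a log2FC of -0.39 (SE 0.227, edgeR adjusted p = 0.572).

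**Figure D4:**
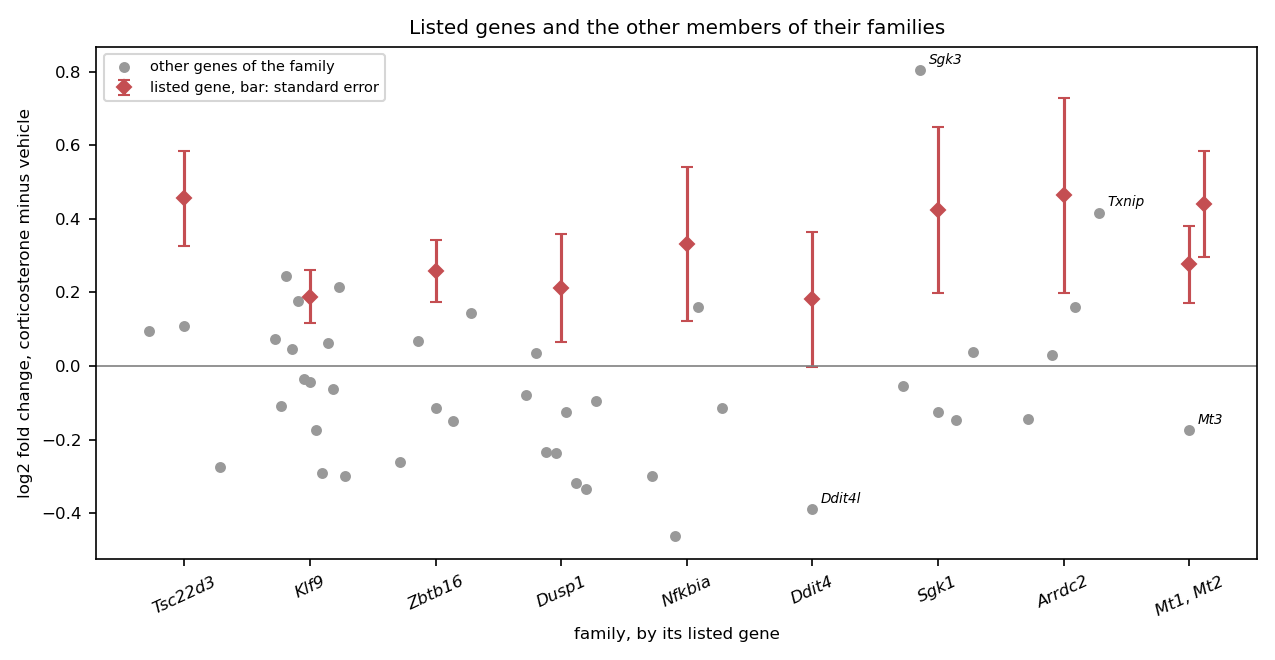
Log2 fold change (corticosterone minus vehicle) of the 10 GC-induced genes (red, bar for the standard error) and of the tested relatives in their families (grey points, 1 per gene). *Sgk3* at 0.80 and *Txnip* at 0.42 are the highest of the relatives, and 7 of the 8 relatives of *Dusp1* lie below 0.

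Relatives of the other genes had mostly small differences or lower means. Of 8 relatives of *Dusp1*, 7 had a lower mean, 2 of them (*Dusp10* with a log2FC of -0.33 and *Dusp7* with -0.24) at an unadjusted p under 0.05, a threshold that 4.52% of tested genes passed with lower values. Of 4 relatives of *Nfkbia*, 3 were lower, with *Nfkbib* at -0.30 below the unadjusted threshold of edgeR and *Nfkbie* at -0.46 just above it. Of 13 relatives of *Klf9*, 6 were higher and 7 lower, with *Klf11* (-0.29) and *Klf16* (-0.30) below the unadjusted threshold. *Zbtb7a* (-0.26) and *Zbtb18* (-0.15) were lower at that threshold among 5 relatives of *Zbtb16*. Relatives of *Tsc22d3* ranged from -0.28 for *Tsc22d4* to 0.11 for *Tsc22d2*, with *Tsc22d1* at 0.09. None of these relatives was called after adjustment.

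Genes that act with the products of the 10 genes differed in direction from list to list, and none was called after adjustment. All 5 NF-κB subunits, the partners held back by IκBα, had lower means, where 50.7% of all tested genes had a log2FC above 0. *Nfkb1* had a log2FC of -0.26 (SE 0.0932, edgeR adjusted p = 0.499) without overlap, beside 1.68% of tested genes lower without overlap. *Relb* had one of -0.19. The 9 targets and partners of *Sgk1* had a median log2FC of 0.05, with *Rictor* at 0.20 (exact permutation p = 0.114) and *Nedd4l*, a ubiquitin ligase phosphorylated by *Sgk1*, at 0.12. Of 7 mTORC1 inhibitors, 4 were higher, and *Sesn1* had a log2FC of 0.21 (edgeR adjusted p = 0.533) and *Akt1s1* -0.21 (edgeR adjusted p = 0.548). The 7 MAP kinases on which *Dusp1* acts lay between -0.03 and 0.18, with *Mapk8* at 0.18 and *Mapk9* at 0.08. Among 6 genes of metal handling, the zinc transporters *Slc30a3* (-0.39) and *Slc39a1* (-0.27) were lower at an unadjusted p under 0.05, beside 4.52% of tested genes. The metal sensor *Mtf1* had a log2FC of 0.04. Of 10 immediate early genes, 9 had lower means with corticosterone, with a median of -0.21. *Fosb* (-0.29) was the only one below the unadjusted threshold, beside the same 4.52% of tested genes. *Egr2* had a log2FC of -0.87 (SE 0.468, edgeR adjusted p = 0.550), from means of 19.6 and 10.7 normalized counts.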

How the data were processed

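Ventral hippocampus RNA was sequenced as stranded mRNA libraries with paired reads of 100 bases (8 libraries, 4 per group). The authors checked the reads with FastQC and MultiQC, mapped them to mm10 (GSnap), ran HTSeq for the counting and deposited raw counts for each gene, not normalized. The annotation release and the strand setting of the counting are not given in the sources used here, so genes that share exon bases on opposite strands are uncertain. Rows that name no gene held 13.71% to 15.43% of the reads and were left out. All 8 columns were matched to their samples by name, and 0 were left over.

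Symbols and coordinates came from GENCODE M21 (GRCm38) and promoter windows from RefSeq (GRCm38.p6). TMM normalization, the filter (filterByExpr) and the quasi-likelihood test (glmQLFit, glmQLFTest) were those of edgeR 4.0.16 in R 4.3.3, with Benjamini-Hochberg adjustment over 16018 genes at a threshold of 0.05. Exact permutation tests were 2-sided, on log2 normalized counts, over 70 assignments. Pearson's r was computed on log2 values with a prior count of 2. Levels (RPKM) divide the counts by union exon length and TMM library size. The alternatives were DESeq2 1.42.0, DESeq2 size factors or upper-quartile factors in edgeR, limma-voom (limma 3.58.1), no filter, a minimum of 10 counts in each library and each library left out in turn. The code was tested on simulated data. The 10 genes and all lists were chosen with earlier results of these data known. Named besides the 10 genes were *Fkbp5*, the 3 genes with the largest Pearson's r to each, and from each list the 2 genes with the smallest p and any called, and other genes of the lists were named after their values were seen. The labels give no batch, and the biological coefficient of variation was 0.111.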

Additional observations from a re-analysis of the deposited data

Results flagged for a closer look

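None of the 10 GC-induced genes had a library that stood apart from the other 3 of its group by Dixon's test. Among 172 sets of 4 values examined, 16 did so, beside 8.6 that chance gives at 1 in 20. Of the relatives and pathway genes, corticosterone library 5 was apart for *Klf11* (81.9 normalized counts, others 93.3 to 95.6) and *Mapk9* (3895, others 4562 to 4699), and library 8 for *Sesn1* (1126, others 1309 to 1339). Vehicle library 2 was apart for *Zbtb18* (6860.5, others 7786 to 7839), library 3 for *Nfkbie* (48.9, others 39.3 to 40.5), and library 4 for *Mapk8* (1952, others 1630.3 to 1679) and *Mapk9* (4670.5, others 4058 to 4097.5). Of the marker genes, *Mbp* was apart in corticosterone library 5 (29002, others 18193 to 19276), *P2ry12* in vehicle library 4 (749, others 585 to 610.2) and *Neurod6* in vehicle library 2 (3105, others 3895.5 to 4015). Of the genes with a pattern like one of the 10, vehicle library 1 was apart for *Fahd1* (296, others 216 to 229), the closest to *Sgk1*, and for *Ptchd4* (89.4, others 69.4 to 72.1), the closest to *Klf9*. *Ptchd4* was also apart in corticosterone library 7 (109, others 85.8 to 88.7), and *Tob2*, the closest to *Arrdc2*, in library 8 (594, others 665 to 678). The share of reads counted as ambiguous was apart in vehicle library 4 (1.404%, others 1.639% to 1.674%) and in corticosterone library 5 (1.483%, others 1.253% to 1.279%).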

How the results depend on the processing

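The log2FC of each of the 10 GC-induced genes was above 0 in all 14 settings. The number of genes called was 1, and it was 63 with DESeq2, 79 with no filter and 0 with at least 10 counts in every sample (1330 at an unadjusted p under 0.05 in edgeR). With 1 library left out it ranged from 0 to 1651, the latter without corticosterone library 5, and it was 19 without vehicle library 1. Of the 10 genes, 0 were called with edgeR (5 at an unadjusted p under 0.05) and 0 with DESeq2 and limma-voom. With no filter 2 were called (*Tsc22d3* and *Mt2*), beside 0.287% of the genes tested. With 1 library left out the number was 0 to 1. The gene called was *Sgk1* without vehicle library 1 (beside 0.117% of the genes tested) and *Tsc22d3* without corticosterone library 5 (beside 10.2%). The number at an unadjusted p under 0.05 was 5 (beside 4.51% of tested genes higher at that threshold), was 8 with no filter (4.05%) and 7 with limma-voom (4.35%, with *Sgk1* and *Arrdc2* added), and ranged from 3 without vehicle library 4 (6.56%) to 9 without vehicle library 1 (3.57%). The number without overlap was 1 and ranged from 1 to 6 with 1 library left out, with 6 without vehicle library 1 (3.45% of tested genes), 3 without corticosterone library 8 (2.66%) and 2 without corticosterone library 5 (12.1%), beside 1.99% with all 8. With 1 library left out, the log2FC of *4921504A21Rik* ranged from -0.011 to 0.36 and that of *Sys1* from -0.011 to 0.13, both negative without vehicle library 4. The cause of these differences was not tested. No paired analysis was possible because replicate numbers 1 to 4 belong to vehicle and 5 to 8 to corticosterone. With 4 libraries per group and vehicle CVs of 53.0% and 47.8%, the edgeR fold intervals of *Arrdc2* (0.927 to 2.05) and *Sgk1* (0.958 to 1.88) include 1.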
